A study of Mus musculus with 18 samples.

Results

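Kidneys of diabetic-model mice that had received a microbiota transfer labelled with AOS were compared with kidneys of mice of the same model that had received AOS itself. The comparison takes 6 of the 18 kidney samples in the series, 3 of the group HS_AOS_FMT and 3 of the group HS_AOS, and asks which transcript levels in the kidney differed by the route of AOS. The groups HS_AOS_FMT, HS_AOS, HS_control_FMT and HS were ICR mice, an outbred strain, aged 10 weeks, and all had a high fat diet with STZ (streptozotocin, which kills insulin-producing beta cells and so models diabetes). HS_AOS_FMT received in addition an FMT (faecal microbiota transplantation) whose label carries AOS at 10 mg/kg, HS_AOS received AOS at 10 mg/kg, HS_control_FMT received an FMT labelled control, and HS carries no further label. The series also holds a group labelled control and a group labelled AOS, given AOS at 10 mg/kg, both without the label of diet and STZ. Their samples enter the estimate of the spread. The labels do not spell out AOS, do not say how donors or FMT doses were chosen, and do not state whether each sample is a different mouse. The p-values therefore rest on the spread between samples, which may be technical. HS_AOS received no FMT, so the material given and the transfer procedure cannot be told apart in the difference between these groups.

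The kidney is built mainly of proximal tubule cells, which take their energy from the oxidation of fatty acids. The nuclear receptor PPARA, which binds fatty acids, drives the genes of that pathway. Other genes respond quickly to stimuli that reach these cells. Immediate early genes such as Fos and Jun encode transcription factors and feedback regulators that need no new protein for their induction, and heat shock genes encode chaperones switched on by the factor HSF1 when proteins unfold. Each of these groups of genes was described as a list, beside lists for lipid, glucose and drug metabolism, the clock, immunity and each cell type of the kidney.

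Levels are FPKM (fragments mapped to a gene, scaled to transcript length and to library size), and differences are on the scale of log2(FPKM + 1), HS_AOS_FMT minus HS_AOS, which understates differences at low levels. A gene was tested where 3 or more of the 6 libraries reached 1 FPKM, which held for 11829 of 19545 genes. Of these, 21 passed that filter through HS_AOS_FMT alone and 21 through HS_AOS alone. The read depth is unknown, since the table holds no counts, and each library lists between 15773 and 16447 genes above 0. Pearson correlations across the tested genes ran from 0.987 to 0.992 within HS_AOS_FMT, from 0.975 to 0.987 within HS_AOS and from 0.976 to 0.989 between the groups.

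The label of kidney matched the markers. Slc34a1, the phosphate transporter of the proximal tubule, was at 2939, 2814 and 2574 FPKM in HS_AOS_FMT 1, 2 and 3, against 2693, 3041 and 2364 FPKM in HS_AOS. The markers of podocytes summed to 140.4 to 149.6 FPKM in HS_AOS_FMT and 143 to 168 FPKM in HS_AOS. Transcripts of other tissues differed between libraries. The summed level of 13 adipocyte markers was 207, 1274 and 891 FPKM in HS_AOS_FMT 1, 2 and 3, against 191, 250 and 115 FPKM in HS_AOS 1, 2 and 3. That of 13 adrenal cortex markers was 78.5, 518 and 142 FPKM in HS_AOS_FMT, against 67.0, 67.1 and 50.1 FPKM in HS_AOS. Cyp11b1, the last enzyme of corticosterone synthesis, was at 0.59, 38.2 and 6.11 FPKM in HS_AOS_FMT, against 0.11, 0.10 and 0 FPKM in HS_AOS, and Chga, a protein of chromaffin granules, was at 0.54, 24.5 and 4.83 FPKM in HS_AOS_FMT and listed at 0 in all 3 HS_AOS libraries. Of the adrenal cortex markers 8 were tested, 3 of which passed the filter through HS_AOS_FMT alone, with a median log2 difference of 2.21. Without HS_AOS_FMT 2 and 3 only 4 of them were tested, with a median of 0.16. The median was 1.82 over 11 tested adipocyte markers, and 0.28 over the 8 tested without those libraries. HS_AOS_FMT 2 and 3 thus stood apart from the other 4 libraries, and results are given with and without them. In such bulk tissue, fewer cells of a type and less RNA per cell cannot be told apart.

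No gene differed between HS_AOS_FMT and HS_AOS past the threshold. With limma and Benjamini-Hochberg adjustment over the 11829 genes, 0 passed an adjusted p of 0.05, which is 0% higher and 0% lower, and the smallest adjusted p was 0.0822, for Jun. At an unadjusted p under 0.05 there were 613 genes (5.18%), 309 of them higher in HS_AOS_FMT (2.61%) and 304 lower (2.57%), where 591 would be expected if no gene differed. With 1 library left out at a time that number ran from 398 (3.41%), without HS_AOS_FMT 2, to 864 (7.4%), without HS_AOS 1. It was 565 (4.78%) with the replicate number as a block, 791 (6.69%) with the 6 libraries alone and 941 (7.96%) with control 3 left out. Under 21 alternative settings the number of genes that passed was 0 in 15, and 1, 2, 2, 3, 3 and 60 in the other 6, as given in the closing section.

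The spread of the samples left room for large differences in a minority of genes only. The median log2 difference over all genes was -0.004, and the median half-width of the 95% confidence interval of a difference was 0.29 on the log2 scale. For 11050 genes (93.4%) that interval lay between -1 and 1. An absolute log2 difference of at least 1 was seen in 109 genes. Separately from the test, the 3 libraries of HS_AOS_FMT all lay above the 3 of HS_AOS in 574 genes (4.85%) and all below in 784 genes (6.63%). These 2 shares are the background for the lists that follow, none of which held a gene past the threshold.

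**Figure D1:**
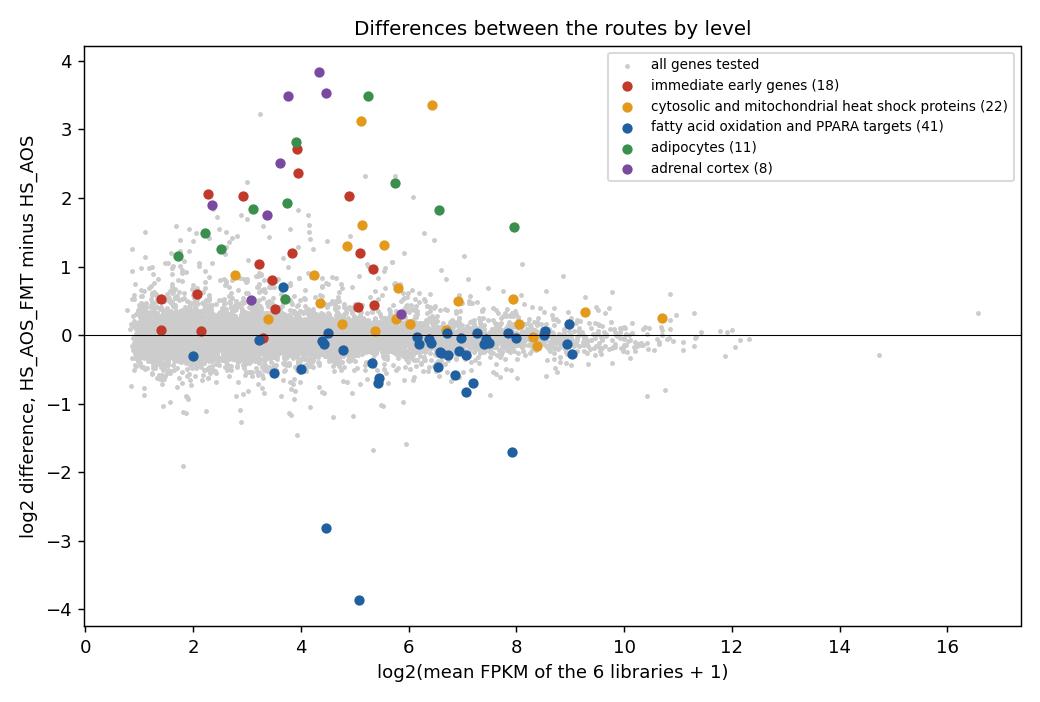
Difference between HS_AOS_FMT and HS_AOS (log2, vertical axis) against the mean level of both groups (log2 of FPKM + 1, horizontal axis) for the 11829 genes tested, 1 point per gene, with members of 5 lists coloured. Immediate early genes and heat shock proteins lie mostly above 0 (17 of 18 and 20 of 22), and genes of fatty acid oxidation and PPARA targets mostly below (34 of 41), while all 11 tested markers of adipocytes and all 8 of the adrenal cortex lie above 0, 3 of the last having passed the filter through HS_AOS_FMT alone.

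For most immediate early genes, every HS_AOS_FMT library lay above every HS_AOS library. Of 23 listed, 18 were tested (Fosb, Fosl1, Egr2, Egr3 and Nr4a2 were too low), and none passed the adjusted test. The 3 HS_AOS_FMT libraries lay above all 3 HS_AOS libraries in 12 of the 18 (66.7%, against 4.85% of all genes) and below in 0. At an unadjusted p under 0.05, 11 of the 18 were higher, against 2.61% of all genes. The median log2 difference was 0.89. No test was made of the list as a whole.

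Jun, which encodes the DNA-binding partner of Fos in the factor AP-1, was at 55.4, 37.1 and 48.5 FPKM in HS_AOS_FMT 1, 2 and 3, against 12.1, 9.91 and 10.1 FPKM in HS_AOS 1, 2 and 3. The groups did not overlap, and the lowest HS_AOS_FMT library was above all 3 HS_control_FMT libraries (23.6, 21.1 and 15.1 FPKM) and all 3 HS libraries (13.98, 26.8 and 21.4 FPKM). The log2 difference was 2.02 (SE 0.300, 95% interval 1.38 to 2.66), with adjusted p = 0.0822 in limma. It lay between 1.90 and 2.28 under all 21 alternatives, with adjusted p from 0.00486 to 1.00, and 6 of them put it past the threshold.

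Fos was at 6.92, 3.22 and 10.6 FPKM in HS_AOS_FMT, against 1.56, 0.26 and 0.67 FPKM in HS_AOS. Its 3 HS_control_FMT libraries were at 2.11, 3.23 and 1.21 FPKM and its 3 HS libraries at 0.88, 1.00 and 1.08 FPKM, so HS_AOS_FMT stood above HS as well, while HS_AOS lay around it. The log2 difference of HS_AOS_FMT from HS_AOS was 2.06 (SE 0.400, 95% interval 1.20 to 2.91, adjusted p = 0.241 in limma). Against HS, the log2 difference of HS_AOS_FMT was 1.88 (adjusted p = 0.0398) and that of HS_AOS was -0.18 (adjusted p = 0.837), from comparisons that share the HS libraries. The direct test between the routes did not reach the threshold, so Fos is not shown to differ by route.

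Nr4a1, an orphan nuclear receptor, was at 15.8, 22.3 and 36.8 FPKM in HS_AOS_FMT, against 4.98, 3.83 and 2.78 FPKM in HS_AOS (log2 2.36, SE 0.551, adjusted p = 0.587 in limma). Its HS libraries, at 8.01, 19.4 and 10.8 FPKM, lay between the groups and overlapped HS_AOS_FMT. Egr1, a zinc finger factor, was at 17.7, 7.03 and 52.98 FPKM in HS_AOS_FMT, against 4.69, 1.05 and 1.46 FPKM in HS_AOS (log2 2.71, adjusted p = 0.647). Atf3, a stress-induced repressor of the ATF family, was at 5.48, 2.6 and 27.7 FPKM in HS_AOS_FMT, against 1.40, 0.71 and 1.43 FPKM in HS_AOS (log2 2.02, adjusted p = 0.698). For Egr1 and Atf3 the HS_AOS_FMT libraries differed widely among themselves, with replicate 3 the highest. Atf3 was as high in HS_control_FMT, at 11.8, 29.7 and 9.97 FPKM.

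Feedback regulators of these pathways lay above HS_AOS as well. Dusp1, a phosphatase that inactivates MAP kinases, was at 63.2, 35.2 and 41.4 FPKM in HS_AOS_FMT, against 26.5, 17.5 and 15.02 FPKM in HS_AOS (log2 1.20, SE 0.340, adjusted p = 0.647 in limma). Zfp36, which encodes tristetraprolin, a protein that promotes decay of AU-rich mRNAs, was at 55.4, 41.6 and 60.6 FPKM in HS_AOS_FMT, against 36.6, 20.2 and 23.7 FPKM in HS_AOS (log2 0.97, SE 0.254, adjusted p = 0.647). In neither gene did the groups overlap. For Dusp1 the HS_control_FMT libraries, at 49.3, 46.6 and 37.8 FPKM, lay within the range of HS_AOS_FMT, and the log2 difference between the 2 transfers was 0.03. Junb (log2 1.20), Btg2 (1.03), Fosl2 (0.60), Myc (0.53) and Ier3 (0.42) completed the 12 members without overlap.

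Other immediate early genes differed little or overlapped. Klf2, a factor of the endothelium, was at 7.61, 9.42 and 8.63 FPKM in HS_AOS_FMT and 12.2, 7.49 and 7.40 FPKM in HS_AOS (log2 -0.04, 95% interval -0.64 to 0.55), the only member with a negative difference. Klf4, Klf6, Jund and Ier2 had positive differences of 0.07, 0.39, 0.43 and 0.81 with overlapping groups, and so did Ier5 (0.06). Of the 12 members without overlap, 9 were highest in HS_AOS_FMT 3, 2 (Jun and Dusp1) in HS_AOS_FMT 1 and 1 (Fosl2) in HS_AOS_FMT 2. HS_AOS_FMT 3 is among the libraries high in adipocyte and adrenal cortex markers, and the part of such cells in this list was not tested beyond leaving libraries out. Without HS_AOS_FMT 2 and 3 the list median was 0.73 and 7 of 17 members were higher at an unadjusted p under 0.05. With 1 library left out at a time the median ran from 0.65 to 1.11 and the count of such members from 7 (without HS_AOS 3) to 11. Relative to HS the list median was 0.50 for HS_AOS_FMT and -0.42 for HS_AOS, and the HS libraries enter both values. Relative to HS_control_FMT the median of HS_AOS_FMT was 0.03, and HS_control_FMT minus HS_AOS had a median of 0.82. Over the list, HS_control_FMT thus lay about as far above HS_AOS as HS_AOS_FMT did, unlike for Jun.

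**Figure D2:**
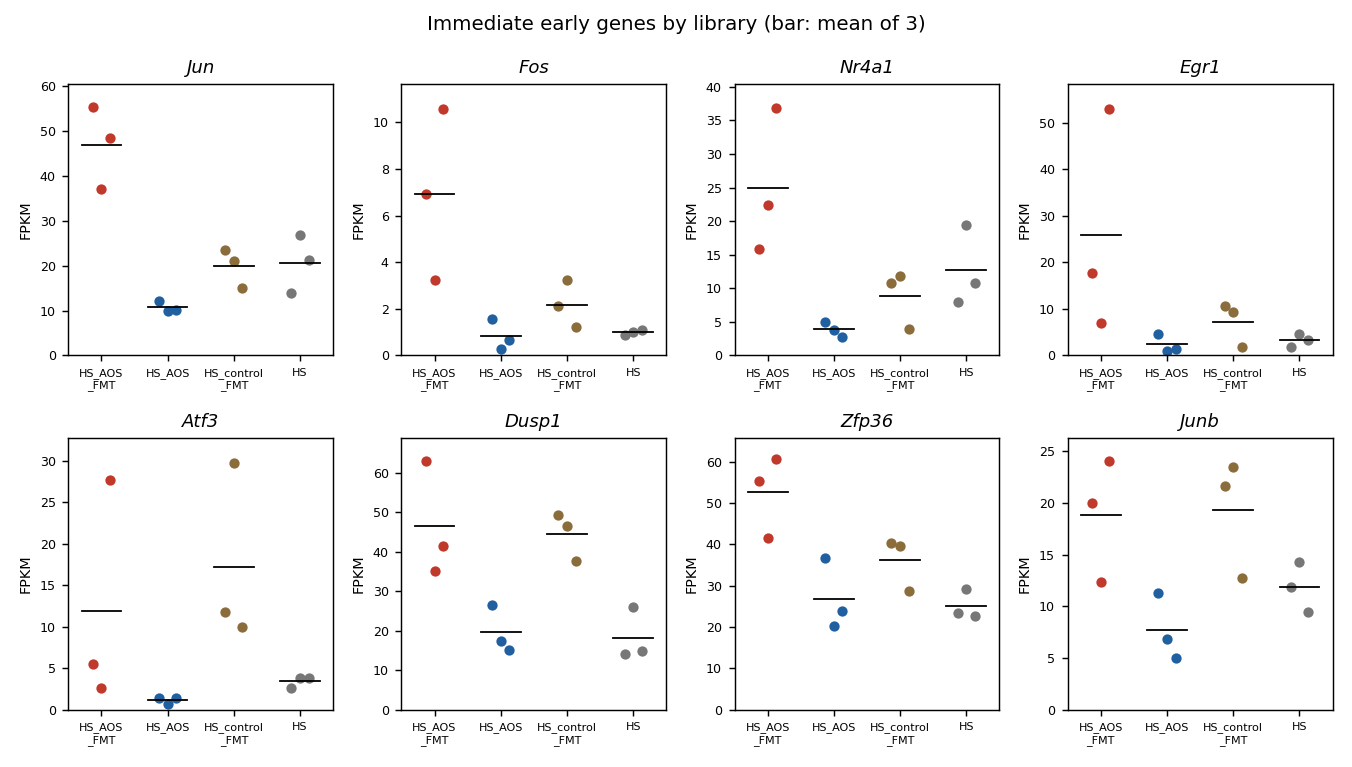
FPKM of 8 immediate early genes (vertical axes, linear, from 0) in the 3 libraries of HS_AOS_FMT, HS_AOS, HS_control_FMT and HS, 1 point per library with a bar at the mean. In each of the 8 genes the HS_AOS_FMT points lie above the HS_AOS points, and in Jun they also lie above every other point shown.

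The promoters of Fos and Nr4a1 are shown because both hold the core of the cAMP response element, a site through which many immediate early genes are induced. The sequences are the 250 bases upstream of the RefSeq start in GRCm38.p6, 5′ to 3′ on the gene's strand, with the letters TGACG or CGTCA in capitals. Fos lies on the plus strand at chr12:85473640-85473889 and Nr4a1 on the plus strand at chr15:101266596-101266845.
Fos: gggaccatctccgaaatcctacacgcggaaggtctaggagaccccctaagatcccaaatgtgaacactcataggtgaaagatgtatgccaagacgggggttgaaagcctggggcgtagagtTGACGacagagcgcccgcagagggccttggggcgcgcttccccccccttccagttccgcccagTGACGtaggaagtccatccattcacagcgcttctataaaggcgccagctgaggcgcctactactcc
Nr4a1: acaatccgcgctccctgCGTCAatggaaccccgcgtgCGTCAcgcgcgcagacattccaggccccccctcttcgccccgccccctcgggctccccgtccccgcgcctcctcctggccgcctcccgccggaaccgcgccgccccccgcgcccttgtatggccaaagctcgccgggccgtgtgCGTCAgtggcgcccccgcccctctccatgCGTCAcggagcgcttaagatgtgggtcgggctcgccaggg
Fos holds 2 such matches, at 129 and 66 bases before the start, and Nr4a1 holds 4, at 233, 213, 69 and 40 bases. The letters TGACG or CGTCA (the same letters on either strand) were found in 11 of the 18 immediate early genes with a promoter in the RefSeq table (61.1%), against 19.8% of all 27025 genes in it. The 11 leave out Jun and include Klf2 and Klf4, whose groups overlapped, and the same letters occurred in 9 of 17 heat shock genes (52.9%). The CArG box, the site of serum response factor, was found in 2 of the 18 (Egr2 and Zfp36), against 1.62% of all. A match is a description of these letters, not evidence of a bound factor.

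Several inducible cytosolic heat shock proteins lay above HS_AOS in every HS_AOS_FMT library, while their mitochondrial relatives overlapped. All 22 listed genes were tested and none passed. The groups did not overlap in 7 of 22 (31.8%, against 4.85% of all genes), all with HS_AOS_FMT above, and 20 of 22 differences were positive. At an unadjusted p under 0.05, 8 of 22 were higher, against 2.61% of all genes. The median log2 difference was 0.41.

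Hspa1b, an inducible HSP70 chaperone, was at 141, 90.7 and 235 FPKM in HS_AOS_FMT 1, 2 and 3, against 8.66, 7.82 and 32.0 FPKM in HS_AOS 1, 2 and 3. Its groups did not overlap, and the log2 difference was 3.36 (SE 0.887, 95% interval 1.46 to 5.26), with adjusted p = 0.647 in limma. The HS_control_FMT libraries were at 353, 380.2 and 234 FPKM, and the HS libraries were spread over both groups, at 11.98, 174 and 129 FPKM. Hspa1a was at 54.3, 34.4 and 93.5 FPKM in HS_AOS_FMT, against 3.94, 3.13 and 12.7 FPKM in HS_AOS (log2 3.12, adjusted p = 0.647). Hspa1a and Hspa1b are near-identical copies, so the split of reads between them is uncertain.

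Hspb1, the small heat shock protein HSP25, was at 45.6, 42.2 and 68.8 FPKM in HS_AOS_FMT, against 16.4, 13.7 and 18.3 FPKM in HS_AOS (log2 1.61, SE 0.437, adjusted p = 0.647 in limma). HS_control_FMT held 214, 239 and 134 FPKM and HS 28.8, 94.3 and 127 FPKM, so HS_AOS_FMT lay below HS_control_FMT and within the range of HS, and HS_AOS lay below both. Dnajb1, the HSP40 partner of HSP70, was at 34.3, 24.9 and 63.6 FPKM in HS_AOS_FMT, against 13.2, 12.4 and 19.5 FPKM in HS_AOS (log2 1.31, adjusted p = 0.698). Dnajb4, a relative of Dnajb1, was at 17.9, 18.6 and 34.9 FPKM in HS_AOS_FMT and 8.56, 11.6 and 16.6 FPKM in HS_AOS (log2 0.88, adjusted p = 0.698). The groups did not overlap in Hspb1, Dnajb1 and Dnajb4, nor in Hspb8 (log2 0.88) and the co-chaperone Bag3 (log2 0.48).

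The abundant and the mitochondrial chaperones overlapped between the groups. Hspa8, the constitutive HSC70, was at 1668, 1585 and 2226 FPKM in HS_AOS_FMT and 1507, 1428 and 1601 FPKM in HS_AOS (log2 0.26, 95% interval -0.18 to 0.70). Hspd1, the mitochondrial chaperonin HSP60, had a log2 difference of -0.02 (95% interval -0.37 to 0.32) and Hspa9, the mitochondrial HSP70, one of -0.15 (-0.35 to 0.05). A second list of 11 heat shock regulators and subunits of the cytosolic chaperonin had a median of -0.02, and none of its members was free of overlap. Cryab, a small heat shock protein of muscle and lens, was at 27.3, 107 and 65.0 FPKM in HS_AOS_FMT and 40.1, 19.7 and 14.4 FPKM in HS_AOS, with overlap.

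The chaperone difference was larger in some libraries than others. Without HS_AOS_FMT 2 and 3 the list median was 0.21 and 4 members were higher at an unadjusted p under 0.05. With 1 library left out at a time the median ran from 0.24 to 0.50. The count of such members ran from 5, without HS_AOS 2 or without HS_AOS_FMT 3, to 8, without HS_AOS_FMT 1. Without HS_AOS 1, 6 members were higher and 1 was lower. Relative to HS the list median was -0.04 for HS_AOS_FMT and -0.50 for HS_AOS, from comparisons that share the HS libraries. Relative to HS_control_FMT the median of HS_AOS_FMT was -0.89.

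**Figure D3:**
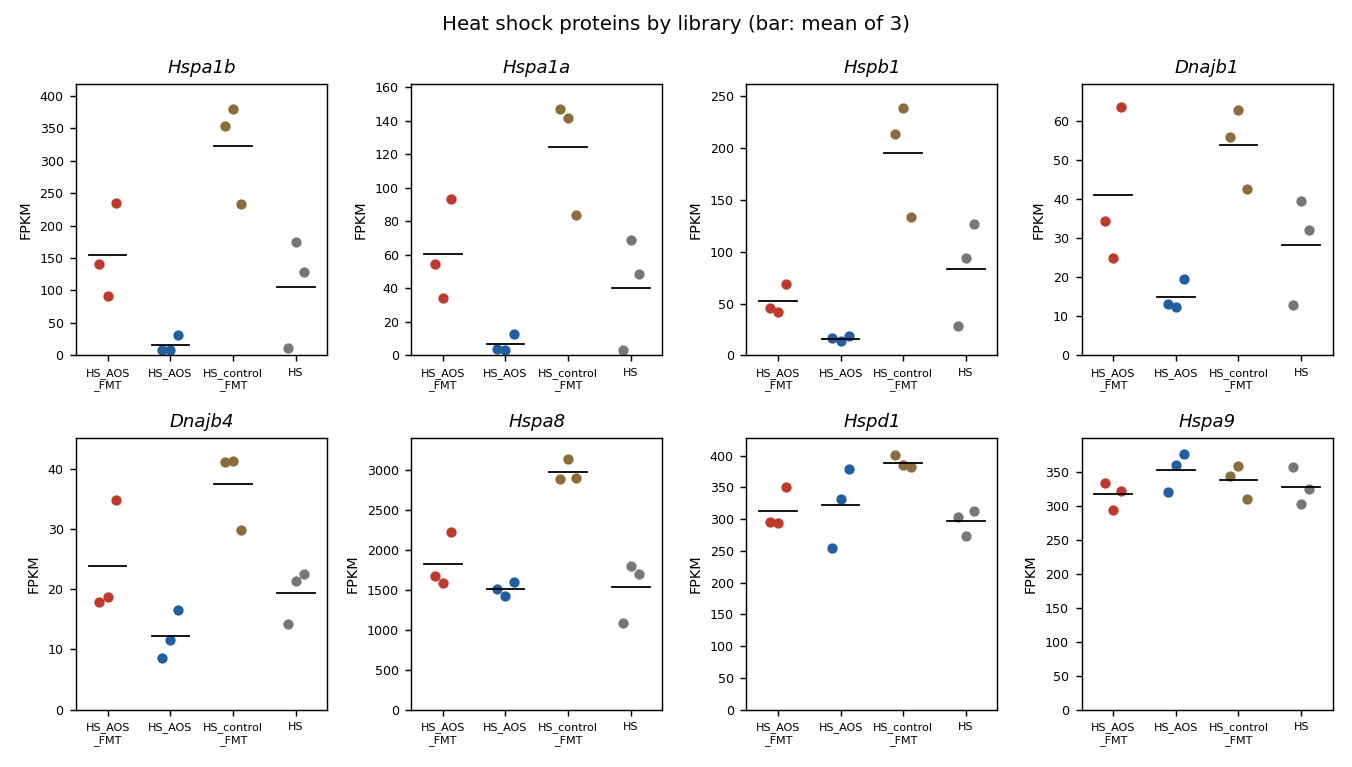
FPKM of 8 heat shock proteins (vertical axes, linear, from 0) in the 3 libraries of HS_AOS_FMT, HS_AOS, HS_control_FMT and HS, 1 point per library with a bar at the mean. The HS_AOS_FMT points of the first 5 genes lie above those of HS_AOS, while Hspa8, Hspd1 and Hspa9 overlap, and Hspa1b, Hspa1a and Hspb1 have their highest mean in HS_control_FMT.

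The promoters of Hspa1b and Hspb1 are shown because both hold the paired GAA units to which HSF1 binds. The sequences are the 250 bases upstream of the RefSeq start in GRCm38.p6, 5′ to 3′ on the gene's strand, with the letters GAANNTTC or TTCNNGAA in capitals. Hspa1b lies on the minus strand at chr17:34959239-34959488 and Hspb1 on the plus strand at chr5:135887669-135887918.
Hspa1b: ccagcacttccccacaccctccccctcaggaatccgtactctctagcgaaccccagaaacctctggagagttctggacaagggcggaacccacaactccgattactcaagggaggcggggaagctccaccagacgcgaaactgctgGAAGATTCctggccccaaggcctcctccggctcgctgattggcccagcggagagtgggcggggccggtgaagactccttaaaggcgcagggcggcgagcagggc
Hspb1: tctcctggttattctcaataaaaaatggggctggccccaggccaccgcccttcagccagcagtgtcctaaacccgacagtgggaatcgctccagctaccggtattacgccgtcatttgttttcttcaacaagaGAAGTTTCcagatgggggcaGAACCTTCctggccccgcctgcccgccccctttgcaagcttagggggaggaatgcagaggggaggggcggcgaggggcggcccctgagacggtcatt
Hspa1b holds 1 match at 104 bases before the start and Hspb1 holds 2, at 117 and 97 bases. GAANNTTC or TTCNNGAA, which read the same on both strands, occurred in 9 of the 17 listed heat shock genes with a promoter in the RefSeq table (52.9%), against 14.5% of all 27025 genes. The 9 include Hspd1 and Hspe1, whose groups overlapped, and leave out Dnajb1, whose groups did not.

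Among targets of PPARA and enzymes of fatty acid oxidation, a minority lay below HS_AOS in all 3 HS_AOS_FMT libraries, by a wide margin in Cyp4a14 and Cyp4a10, while most members overlapped. Of 42 listed, 41 were tested (Fabp1 was too low) and none passed. HS_AOS_FMT lay below HS_AOS without overlap in 14 of 41 (34.1%, against 6.63% of all genes), above in 0, and with overlap in 27. The median log2 difference was -0.13, with 34 of 41 negative. An unadjusted p under 0.05 was reached by 10 of 41, all of them lower, against 2.57% of all genes. Pdk4, a kinase that inhibits pyruvate dehydrogenase, had the largest positive difference, with 4.83, 23.3 and 17.95 FPKM in HS_AOS_FMT and 9.64, 10.45 and 4.18 FPKM in HS_AOS (log2 0.70, adjusted p = 0.992 in limma), with overlap.

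Cyp4a14, a fatty acid omega-hydroxylase, was at 5.66, 2.55 and 2.39 FPKM in HS_AOS_FMT 1, 2 and 3, against 57.6, 67.4 and 60.3 FPKM in HS_AOS 1, 2 and 3. Both groups were tight and far apart, but the HS libraries were split, with HS 1 at 68.8 FPKM and HS 2 and 3 at 6.25 and 6.41 FPKM. The 3 HS_control_FMT libraries, at 4.45, 14.65 and 3.76 FPKM, also lay below HS_AOS. The libraries of the group labelled control, which also enter the spread estimate, were at 8.56, 2.42 and 227 FPKM in control 1, 2 and 3. The log2 difference was -3.86 (SE 1.17, 95% interval -6.37 to -1.35), with adjusted p = 0.698 in limma when all 18 samples set the spread. With the 6 libraries alone in the fit the adjusted p was 0.00542, with a range of 0.00542 to 1.00 over the 21 alternatives. The mean ± SD was 3.53 ± 1.84 FPKM in HS_AOS_FMT and 61.8 ± 5.09 FPKM in HS_AOS (n = 3 each).

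Cyp4a10, another omega-hydroxylase, was at 109, 104 and 119.6 FPKM in HS_AOS_FMT, against 420.1, 405 and 279 FPKM in HS_AOS (log2 -1.70, SE 0.728, adjusted p = 0.936 in limma, and 0.0195 to 1.00 over the alternatives). Cyp4a31, a paralog that is not a member of the list, was at 24.9, 30.9 and 30.0 FPKM in HS_AOS_FMT, against 145, 63.1 and 73.1 FPKM in HS_AOS (log2 -1.59, SE 0.430, adjusted p = 0.647). Cyp4a genes are close paralogs, so the assignment of reads among them is uncertain. HS 1 again stood apart for Cyp4a10, at 498 FPKM against 87.4 and 118 FPKM in HS 2 and 3. The HS_control_FMT libraries were at 124, 204 and 121 FPKM for Cyp4a10, below HS_AOS as well.

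Decr1, Eci1 and Vnn1 showed smaller differences than these Cyp4a genes, with tight groups except for HS_AOS in Eci1 (SD 45.8 FPKM). Decr1, the mitochondrial dienoyl-CoA reductase, was at 91.2, 89.0 and 94.4 FPKM in HS_AOS_FMT, against 141, 148 and 125 FPKM in HS_AOS (log2 -0.58, SE 0.173, adjusted p = 0.698 in limma). Eci1, the enoyl-CoA isomerase, was at 88.5, 100.5 and 93.2 FPKM in HS_AOS_FMT, against 216, 177 and 125 FPKM in HS_AOS (log2 -0.83, SE 0.290, adjusted p = 0.821). Vnn1, a pantetheinase induced by PPARA, was at 29.3, 32.7 and 33.4 FPKM in HS_AOS_FMT, against 54.0, 56.6 and 45.8 FPKM in HS_AOS (log2 -0.69, adjusted p = 0.983). In all 3 genes the groups did not overlap and HS_control_FMT lay near HS_AOS_FMT, with log2 differences between the transfers of -0.03 for Decr1, -0.24 for Eci1 and 0.01 for Vnn1. Cpt2 (-0.46), Pex11a (-0.40), Hsd17b4 (-0.29), Etfdh (-0.25), Hadh (-0.13), Acot1 (-0.62), Acot3 (-0.56) and Cyp4a12b (-0.31) were below without overlap as well. The HS libraries were split in Decr1, Eci1 and Vnn1 too. HS 1, 2 and 3 were at 153, 75.0 and 90.7 FPKM for Decr1 and at 207, 88.4 and 113 FPKM for Eci1. For Vnn1 they were at 74.1, 18.2 and 22.7 FPKM.

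Ppara itself and other main enzymes did not separate the groups. Ppara was at 19.2, 20.4 and 18.9 FPKM in HS_AOS_FMT and 25.9, 20.5 and 18.1 FPKM in HS_AOS (log2 -0.12, 95% interval -0.42 to 0.18), and turned to 0.02 without HS_AOS 1. Cpt1a, which controls entry of fatty acids into mitochondria, had a log2 difference of -0.04 (95% interval -0.38 to 0.31), Ehhadh one of 0.03 and Acadm one of 0.17. A log2 difference beyond 1 lies outside the intervals of Ppara and Cpt1a.

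The count of oxidation genes at an unadjusted p under 0.05 depended on single libraries. The number lower was 5, 3 and 3 without HS_AOS_FMT 1, 2 and 3 (and 1 was higher without HS_AOS_FMT 1), and 4, 4 and 12 without HS_AOS 1, 2 and 3, and 1 without HS_AOS_FMT 2 and 3 together. The list median was between -0.13 and -0.22 with 1 library left out at a time and -0.24 without HS_AOS_FMT 2 and 3. Relative to HS, in comparisons that share the HS libraries, it was 0.01 for HS_AOS_FMT and 0.28 for HS_AOS. Relative to HS_control_FMT the median of HS_AOS_FMT was 0.02, and HS_control_FMT minus HS_AOS had a median of -0.34. Over the list, HS_control_FMT thus lay below HS_AOS as well.

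**Figure D4:**
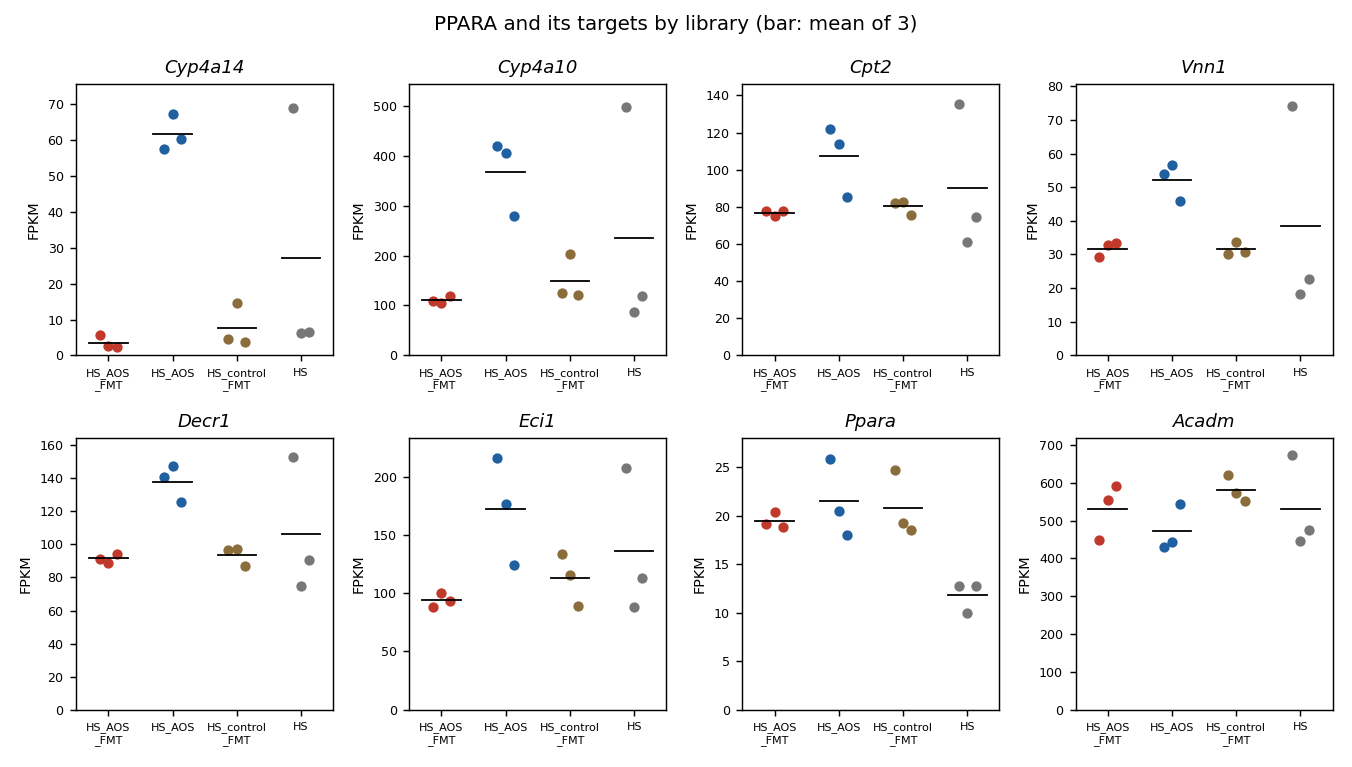
FPKM of Ppara and 7 other members of the list of fatty acid oxidation and PPARA targets (vertical axes, linear, from 0) in the 3 libraries of HS_AOS_FMT, HS_AOS, HS_control_FMT and HS, 1 point per library with a bar at the mean. HS_AOS_FMT lies below HS_AOS in Cyp4a14, Cyp4a10, Cpt2, Vnn1, Decr1 and Eci1, while the 2 groups overlap in Ppara and Acadm. HS 1 is far above HS 2 and 3 in Cyp4a14 and Cyp4a10, and also above them in Cpt2, Vnn1, Decr1, Eci1 and Acadm.

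Fatty acid elongases were among the lowest p-values in the other direction from Jun. Elovl2, which elongates polyunsaturated fatty acids, was at 10.2, 10.2 and 9.02 FPKM in HS_AOS_FMT, against 16.7, 19.6 and 17.8 FPKM in HS_AOS (log2 -0.81, SE 0.149, 95% interval -1.13 to -0.49, adjusted p = 0.241 in limma). All 3 HS_control_FMT libraries (11.9, 11.8 and 9.80 FPKM) and all 3 HS libraries (11.9, 12.2 and 14.04 FPKM) lay below the lowest HS_AOS library. Its adjusted p ran from 0.00712 to 1.00 over the alternatives, 4 of which put it past the threshold. Elovl1, which elongates saturated very long chain fatty acids, was at 79.6, 69.8 and 72.5 FPKM in HS_AOS_FMT, against 116, 108 and 96.9 FPKM in HS_AOS (log2 -0.52, SE 0.102, adjusted p = 0.241).

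Most other genes of fatty acid synthesis had positive differences. The list held 17 tested members with a median of 0.28, 14 of them positive. HS_AOS_FMT lay above in 3 (17.6%, against 4.85% of all genes) and below in 1, Elovl1 (5.88%, against 6.63%). Srebf1, the transcription factor of lipogenesis, was at 8.77, 10.5 and 11.4 FPKM in HS_AOS_FMT, against 4.76, 5.99 and 6.93 FPKM in HS_AOS (log2 0.71, SE 0.206, adjusted p = 0.652 in limma). Mid1ip1, an activator of acetyl-CoA carboxylase, had a log2 difference of 0.52 and Fads2, the delta-6 desaturase, one of 0.42, both without overlap. Markers of adipocytes, which also express this pathway, summed to 207 to 1274 FPKM in HS_AOS_FMT and 115 to 250 FPKM in HS_AOS. The part of such cells in this list was not tested beyond leaving libraries out. Without HS_AOS_FMT 2 and 3, the libraries with most of these markers, the list median was 0.06 and the log2 difference of Srebf1 0.52. Abca1, which exports cholesterol, was at 6.90, 7.32 and 5.61 FPKM in HS_AOS_FMT, against 2.41, 3.65 and 3.93 FPKM in HS_AOS (log2 0.82, SE 0.221, adjusted p = 0.647), without overlap.

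The other genes with the smallest p-values, none of which passed, were of mixed kinds. Cnpy2, an endoplasmic reticulum protein, was at 93.8, 88.8 and 92.1 FPKM in HS_AOS_FMT, against 67.9, 71.6 and 64.3 FPKM in HS_AOS (log2 0.43, SE 0.0804, adjusted p = 0.241 in limma), and HS_AOS was also below the 3 HS libraries (83.8, 92.1 and 90.9 FPKM). Wfdc16 was at 2.07, 1.71 and 2.04 FPKM in HS_AOS_FMT, against 0.25, 0.74 and 0.09 FPKM in HS_AOS (log2 1.14, adjusted p = 0.271), levels at which few reads decide the value. Izumo4 was at 4.71, 8.61 and 5.39 FPKM in HS_AOS_FMT, against 2.64, 3.05 and 3.44 FPKM in HS_AOS (log2 0.81, adjusted p = 0.472).

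On the lower side, Rab8a, a GTPase of transport to the plasma membrane and cilium, was at 55.6, 54.0 and 51.9 FPKM in HS_AOS_FMT, against 66.7, 62.7 and 65.4 FPKM in HS_AOS (log2 -0.27, SE 0.0602, adjusted p = 0.574 in limma). Here HS_AOS lay near HS (70.0, 68.6 and 67.8 FPKM), and HS_AOS_FMT differed from HS past the threshold (log2 -0.35, adjusted p = 0.0202). Rab30, a GTPase of the Golgi, was at 0.78, 1.15 and 1.03 FPKM in HS_AOS_FMT, against 3.05, 3.74 and 2.05 FPKM in HS_AOS (log2 -0.97, adjusted p = 0.587). Gsdme, a pore-forming gasdermin, was at 3.48, 3.31 and 2.56 FPKM in HS_AOS_FMT, against 4.90, 5.08 and 4.65 FPKM in HS_AOS (log2 -0.52, adjusted p = 0.602). None of these 6 genes overlapped between the groups.

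Some enzymes of glycolysis lay below HS_AOS in all 3 HS_AOS_FMT libraries, while the genes of gluconeogenesis and glucose transport were balanced. Of 16 tested genes of glycolysis, 4 were below without overlap (25%, against 6.63% of all genes) and 0 above, with a median of -0.08. Pgam1, phosphoglycerate mutase, was at 278, 285 and 267 FPKM in HS_AOS_FMT, against 322, 340.3 and 337 FPKM in HS_AOS (log2 -0.27, SE 0.0653, adjusted p = 0.647 in limma). Of 18 genes of gluconeogenesis and glucose transport, 2 lay above (11.1%, against 4.85% of all genes) and 2 below (11.1%, against 6.63%), with a median of -0.04. Sik1, a kinase that restrains gluconeogenesis, was at 17.2, 17.5 and 21.7 FPKM in HS_AOS_FMT, against 15.7, 8.39 and 7.56 FPKM in HS_AOS (log2 0.83, SE 0.212, adjusted p = 0.647), without overlap. Pck1, the rate-limiting enzyme of gluconeogenesis, was at 1062, 1417 and 1296 FPKM in HS_AOS_FMT, against 2660, 2108 and 1845 FPKM in HS_AOS (log2 -0.80, adjusted p = 0.945). HS 1, at 2395 FPKM, again stood above HS 2 and 3 (775 and 799 FPKM) for Pck1, as for Cyp4a14 and Cyp4a10. Glud1, glutamate dehydrogenase, was named after its values were seen and was at 202, 197 and 206 FPKM in HS_AOS_FMT, against 287, 304 and 347 FPKM in HS_AOS (log2 -0.63, SE 0.173, adjusted p = 0.647).

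Among 33 tested genes of xenobiotic metabolism, HS_AOS_FMT was below in 8 (24.2%, against 6.63% of all genes) and above in 4 (12.1%, against 4.85%). Akr1c21, a hydroxysteroid dehydrogenase abundant in mouse kidney, was at 905, 878 and 1056 FPKM in HS_AOS_FMT, against 2421, 1329 and 1650 FPKM in HS_AOS (log2 -0.89, SE 0.224, adjusted p = 0.647 in limma). Akr1e1, an aldo-keto reductase, was at 45.1, 55.0 and 55.7 FPKM in HS_AOS_FMT, against 81.7, 78.0 and 86.8 FPKM in HS_AOS (log2 -0.66, adjusted p = 0.731). Both genes were without overlap. Cyp7b1, an oxysterol hydroxylase, was at 26.2, 72.3 and 64.8 FPKM in HS_AOS_FMT and 7.65, 1.92 and 40.4 FPKM in HS_AOS (log2 2.32, adjusted p = 0.845), with overlap and a wide spread within HS_AOS. Of 28 antioxidant genes 9 were below (32.1%, against 6.63% of all genes) and 2 above (7.14%, against 4.85%), by small amounts, as with the mitochondrial peroxidase Prdx3 at 169, 168 and 164 FPKM in HS_AOS_FMT, against 182, 179.7 and 193 FPKM in HS_AOS (log2 -0.15).

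**Figure D5:**
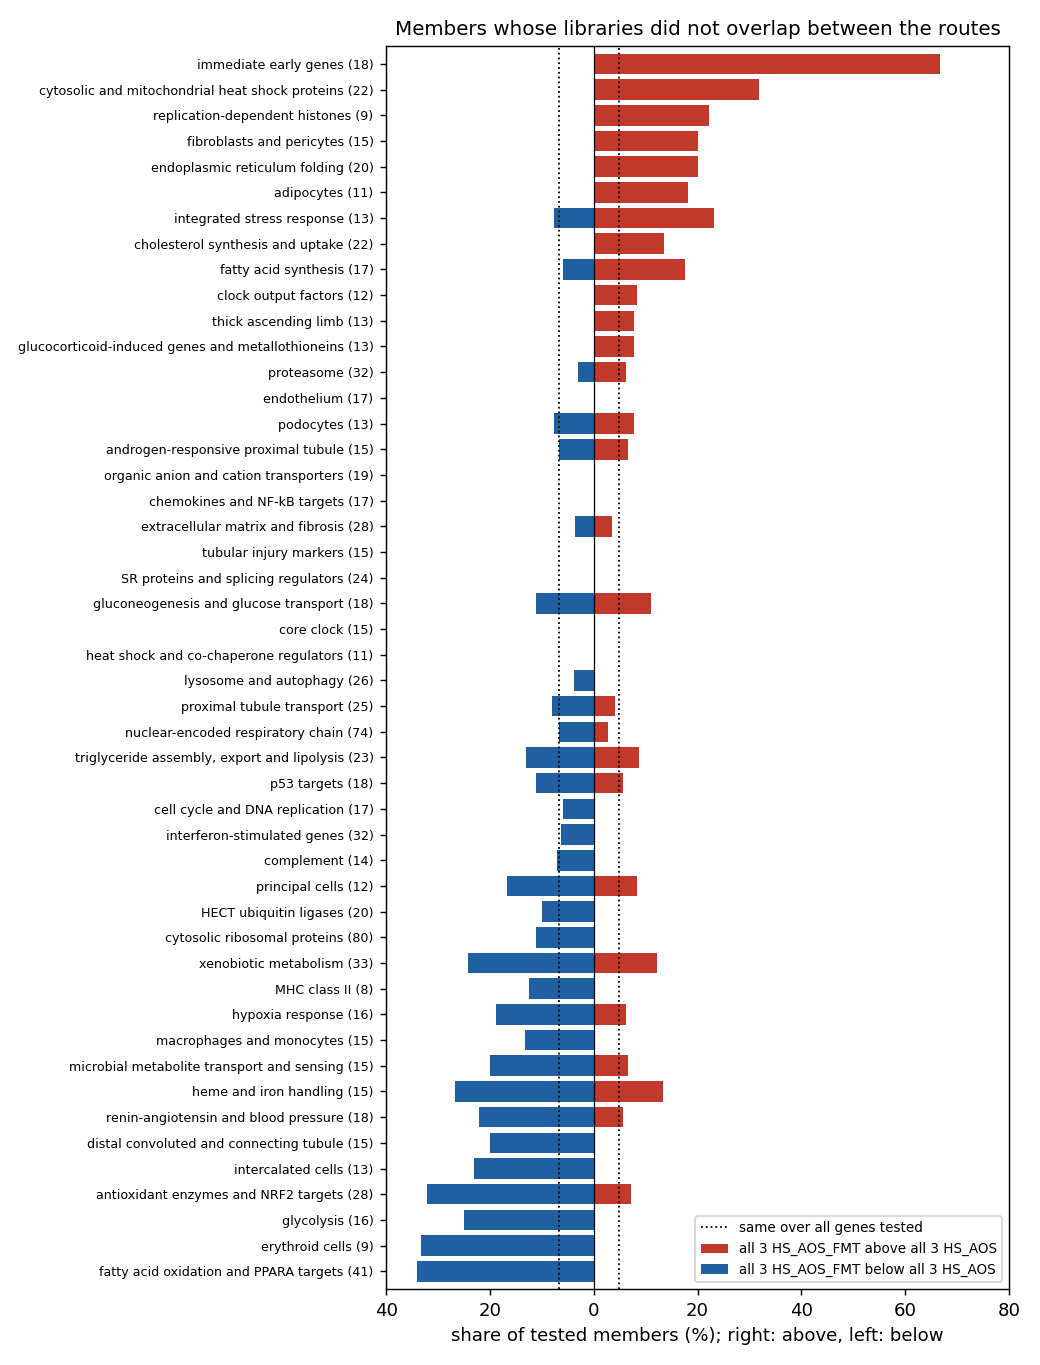
Share of tested members (percent, horizontal axis) whose 3 HS_AOS_FMT libraries all lay above, or all below, the 3 HS_AOS libraries, by gene list with at least 8 tested members, none of which passed the filter through 1 group alone, with the number tested in brackets and lines at the shares among all genes (4.85% above, 6.63% below). Immediate early genes (66.7% above) and heat shock proteins (31.8% above) stand on the right, and fatty acid oxidation and PPARA targets (34.1% below) stand on the left beside erythroid markers (33.3% below).

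Genes called for either route against HS are set side by side here. Against HS, in comparisons that share the HS libraries, 126 genes (1.07%) passed for HS_AOS_FMT, 57 higher (0.482%) and 69 lower (0.583%), and 325 (2.75%) for HS_AOS, 159 higher (1.34%) and 166 lower (1.4%). The 57 genes higher in HS_AOS_FMT had a median log2 difference from HS of 0.54 in HS_AOS_FMT and 0.44 in HS_AOS, and the 69 lower ones -0.48 in HS_AOS_FMT and -0.39 in HS_AOS. The 159 genes higher in HS_AOS had medians of 0.34 in HS_AOS_FMT and 0.43 in HS_AOS, and the 166 lower ones -0.38 in HS_AOS_FMT and -0.50 in HS_AOS. The 95% interval of the difference between the routes lay between -1 and 1 for 55 of the 57, 69 of the 69, 158 of the 159 and 155 of the 166. Each set was chosen on libraries that enter this difference.

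Clock output genes were among those that earlier results on these samples name for either route. Hlf, a PAR bZIP factor of the circadian output, was at 33.6, 39.5 and 34.9 FPKM in HS_AOS_FMT and 43.9, 30.7 and 32.6 FPKM in HS_AOS, and all 6 libraries were above the 3 of HS (23.6, 21.5 and 18.5 FPKM). Against HS, Hlf rose in HS_AOS_FMT (log2 0.74, adjusted p = 0.0202) and in HS_AOS (log2 0.72, adjusted p = 0.0151), and the difference between the routes was 0.03 (95% interval -0.24 to 0.29). Tef, a relative of Hlf, differed between the routes by 0.10 (-0.47 to 0.68) and Per3, a clock repressor, by 0.33 (-0.53 to 1.20), both with overlap. None of 15 core clock genes and 1 of 12 output genes, Nfil3, was free of overlap. Nfil3, a repressor that opposes Hlf and Tef, was at 2.45, 3.67 and 4.22 FPKM in HS_AOS_FMT and 1.73, 2.24 and 2.43 FPKM in HS_AOS, both below all 3 HS libraries (5.29, 16.1 and 12.2 FPKM), with a difference between the routes of 0.49 (-0.38 to 1.36).

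Ppara, Tnfrsf21, Upp2, Hmox1 and Mttp are other genes named that way. Ppara rose against HS in HS_AOS_FMT (log2 0.68, adjusted p = 0.0398 in limma) and in HS_AOS (log2 0.80, adjusted p = 0.0160). It was as high in HS_control_FMT, at 24.7, 19.3 and 18.5 FPKM, and HS_AOS_FMT minus HS_control_FMT was -0.08. Tnfrsf21, the death receptor DR6, was at 57.2, 64.3 and 70.3 FPKM in HS_AOS_FMT, 69.9, 45.3 and 46.0 FPKM in HS_AOS and 30.8, 25.6 and 34.8 FPKM in HS, with a difference between the routes of 0.27 (95% interval -0.11 to 0.65). Its HS_control_FMT libraries were also above HS, at 69.4, 52.1 and 63.5 FPKM, and HS_AOS_FMT minus HS_control_FMT was 0.06. Upp2, uridine phosphorylase, differed between the routes by 0.19 (-0.38 to 0.76). HS_AOS_FMT minus HS_control_FMT was larger for Upp2, at 0.84 (adjusted p = 0.0857 in limma), and for Mttp, at 0.42 (adjusted p = 0.0994). Neither passed the threshold. Hmox1, heme oxygenase, was at 35.3, 30.6 and 34.1 FPKM in HS_AOS_FMT and 28.8, 38.0 and 47.2 FPKM in HS_AOS, with 199, 148 and 139 FPKM in HS_control_FMT and 56.1, 56.6 and 66.6 FPKM in HS, and differed between the routes by -0.16 (-0.50 to 0.18). Mttp, which loads lipid onto lipoproteins, was at 7.78, 7.71 and 7.26 FPKM in HS_AOS_FMT and 9.25, 11.6 and 9.10 FPKM in HS_AOS, without overlap (log2 -0.35, adjusted p = 0.906 in limma), and HS was at 6.10, 5.57 and 4.59 FPKM.

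Rnase4 had the widest gap between the routes among the 12 genes named that way apart from Fos and Hspb1. This secreted ribonuclease was at 106, 86.9 and 57.3 FPKM in HS_AOS_FMT, against 28.8, 34.6 and 41.7 FPKM in HS_AOS and 14.9, 37.2 and 30.9 FPKM in HS. The groups did not overlap, and the log2 difference between the routes was 1.20 (SE 0.320, 95% interval 0.52 to 1.88, adjusted p = 0.647 in limma). Its neighbour Ang, which encodes angiogenin and was added after the values were seen, was at 32.1, 24.0 and 19.2 FPKM in HS_AOS_FMT, against 7.63, 6.68 and 12.6 FPKM in HS_AOS (log2 1.40, adjusted p = 0.750). Rnase4 (chr14:51091077-51106151) and Ang (chr14:51091077-51102009, GRCm38) start at the same base in RefSeq, so reads of the shared part cannot be told apart.

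Cell type markers of the nephron were counted by segment. Of 25 tested proximal tubule transporters, 1 lay above (4%, against 4.85% of all genes) and 2 below (8%, against 6.63%), with a median of -0.03. The thick ascending limb list had a median of 0.26 over 13 members, led by Umod, which encodes uromodulin, at 370.0, 732 and 700.3 FPKM in HS_AOS_FMT and 395, 218 and 364 FPKM in HS_AOS (log2 0.86, adjusted p = 0.821 in limma, with overlap). That median was 0.01 without HS_AOS_FMT 2 and 3. Calb1, the calcium-binding protein of the distal and connecting tubule, was at 105, 97.3 and 85.8 FPKM in HS_AOS_FMT, against 121, 153 and 170.4 FPKM in HS_AOS (log2 -0.61, adjusted p = 0.907), without overlap. In its list, the distal convoluted and connecting tubule, 3 of 15 lay below without overlap (20%, against 6.63% of all genes) and 0 above, and 13 of 15 differences were negative. Of 13 markers of intercalated cells, which secrete acid and base, 3 lay below (23.1%, against 6.63% of all genes) and 0 above. The median of this list was -0.03, with 6 differences positive and 7 negative. The summed level of these markers was 546.6 to 597 FPKM in HS_AOS_FMT, against 659 to 708 FPKM in HS_AOS, without overlap. Such a sum weighs the abundant markers most. Of 12 principal cell markers 2 lay below (16.7%, against 6.63% of all genes) and 1 above (8.33%, against 4.85%).

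Markers of injury and immunity did not separate the routes either. None of 15 tested tubular injury markers was free of overlap, and Havcr1, the kidney injury molecule, was at 2.00, 1.98 and 4.50 FPKM in HS_AOS_FMT and 2.06, 2.14 and 3.72 FPKM in HS_AOS (log2 0.04, 95% interval -1.18 to 1.26). All 8 tested MHC class II genes had negative differences, with a median of -0.55. H2-Aa, an MHC class II chain, was at 69.2, 79.5 and 65.3 FPKM in HS_AOS_FMT and 176, 79.9 and 90.3 FPKM in HS_AOS. It was the only member of its list without overlap (12.5%, against 6.63% of all genes), by a margin of less than 1 FPKM. Of 32 interferon-stimulated genes 29 were negative (median -0.25) and 2 were below without overlap (6.25%, against 6.63% of all genes).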

How the data were processed

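Kidney RNA sequencing libraries were labelled as 18 samples in 6 groups of 3, and groups were taken from the labels. The values are FPKM per gene symbol, made by the authors and deposited rounded to 2 decimals, and their unit was inferred, since FPKM times transcript length gave library totals with a coefficient of variation of 0.863%, while plain totals gave 4.29%. Bowtie 0.12.2 and mm10 are named per the submitters' processing notes, and the counting program, annotation and strandedness were not given in the sources used here. Whole reads could not be recovered from low values, so depth is unknown and no count test was run.

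Here log2(FPKM + 1) was fitted with 1 mean per group over all 18 samples (12 residual degrees of freedom) with R 4.3.3 and limma 3.58.1 (options trend and robust), which was tested on simulated data. P-values were adjusted over the 11829 genes with at least 1 FPKM in 3 of the 6 compared libraries, at 0.05. A sign of a difference is HS_AOS_FMT minus HS_AOS unless another pair is named. Where several symbols shared a row name (3 rows), the row of higher mean kept it.

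Members and 55 gene lists were chosen with earlier results of these data known, and lists got no test of their own. Named genes were to be up to 15 per direction that passed. With none, the 5 of smallest p in each direction, the 2 of smallest p in a list and 12 genes from earlier results were named, not all of them in the text. Nr4a1, Egr1, Zfp36, Junb, Btg2, the other heat shock, Cyp4a and oxidation genes, Mid1ip1, Fads2, Vnn1, Glud1, Ang and markers were named after values were seen. Replicate numbers did not pair the groups (correlations of deviations -0.0852, -0.0619 and 0.238). Positions and promoters are RefSeq's, GRCm38.p6.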

Additional observations from a re-analysis of the deposited data

How the results depend on the processing

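The number of genes that passed was 0 in the main analysis, 0 in each of the 6 analyses that left out 1 library (lowest and highest 0 and 0), and 0 with the replicate number as a block (565 at an unadjusted p under 0.05). It was 2 with quantile normalization (Jun and Elovl2), 60 with array weights (29 higher and 31 lower, with a convergence warning for the weights), 3 with the 6 libraries alone (Jun, Cyp4a14 and Cyp4a10), 3 with the 12 libraries that had the diet and STZ, 2 with control 3 left out of the fit (Jun and Elovl2) and 1 with the trends in GC content and length removed (Jun). The cause of these differences was not tested. The trend with GC content differed between libraries (rank correlations of -0.0898, -0.167 and -0.449 in HS_AOS_FMT 1, 2 and 3, and of 0.118, -0.264 and -0.631 in HS_AOS 1, 2 and 3). With these trends removed, the list medians were 0.86 for immediate early genes, 0.39 for heat shock proteins and -0.14 for fatty acid oxidation. Of 1143 values recomputed for 55 genes under 21 alternatives, 1109 kept their direction and side of the threshold, 27 passed it and 7 changed sign. The sign changes were Ppara at 0.0152 without HS_AOS 1, Hlf at -0.0676 without HS_AOS_FMT 2 and 3, -0.0727 without HS_AOS 2, -0.0314 without HS_AOS 3 and -0.0416 without HS_AOS_FMT 2, Hmox1 at 0.0089 without HS_AOS 3, and Tef at -0.0984 without HS_AOS 2. With 1 library left out at a time, Ppara ran from -0.2335 to 0.0152, Hlf from -0.0727 to 0.1793, Hmox1 from -0.3383 to 0.0089 and Tef from -0.0984 to 0.3265. With HS_AOS_FMT 1 as the lone sample of its group, the fit assumes that it varies like the other groups. The fits with the block changed no call, and replicate numbers are not known to pair samples. The 3 libraries a group and unknown depth limit what could be detected.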

Other observations

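Hbb-bs, a beta globin chain of red blood cells, was at 324, 239 and 42.4 FPKM in HS_AOS_FMT 1, 2 and 3 and at 0.58, 363 and 685 FPKM in HS_AOS 1, 2 and 3, so HS_AOS 1 held almost none of it. The summed erythroid markers were at 4105, 3361 and 4185 FPKM in HS_AOS_FMT and 4783, 3338 and 3796 FPKM in HS_AOS. HS_AOS 1 was thus low in Hbb-bs but not in erythroid markers as a whole, and the cause was not tested. Slc22a7, an organic anion transporter of the proximal tubule, was at 60.5, 113 and 139 FPKM in HS_AOS_FMT and at 14.1, 14.4 and 61.9 FPKM in HS_AOS (log2 2.02, adjusted p = 0.731 in limma). Its highest HS_AOS library was replicate 3, just above the lowest of HS_AOS_FMT, and Cyp7b1 had its highest HS_AOS level in the same replicate, at 40.4 FPKM against 7.65 and 1.92 FPKM in the other 2. Ucp1, a marker of brown and beige fat, was at 8.65, 129 and 67.2 FPKM in HS_AOS_FMT and at 1.12, 16.3 and 0.65 FPKM in HS_AOS, in the order of the adipocyte marker sums within each group.

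Glucocorticoid-induced genes all had positive differences (13 of 13 tested, median 0.45), with 1 of 13 free of overlap (7.69%, against 4.85% of all genes). That gene was Dusp1, which is also in the list of immediate early genes. Relative to HS_control_FMT the median of HS_AOS_FMT was -0.38, and HS_control_FMT minus HS_AOS had a median of 0.89. Tsc22d3, which encodes GILZ, was at 25.2, 32.4 and 35.3 FPKM in HS_AOS_FMT and 29.9, 16.6 and 21.8 FPKM in HS_AOS. Among 80 cytosolic ribosomal protein genes, 9 lay below without overlap (11.2%, against 6.63%) and 0 above, with a median of -0.06.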
